A study of Mus musculus with 208 samples.

Results

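The morulae described here came from eggs of conventionally raised (CR) females fertilised in vitro with sperm of germ-free (GF) males, written GFxCR. They are 17 of the 208 samples of the series, and each is the polyadenylated RNA of 1 whole embryo. They were set against morulae from CR sperm and CR eggs (CRxCR). Embryos of both groups are labelled WT, were collected after fertilisation and culture outside the body, and lay in 1 table of 88 morulae. The 43 CRxCR morulae of that table fall into 2 sets by the levels of Marchf2 and Mtarc2, and the controls, chosen by these measured levels, were the 21 in which Marchf2 was above Mtarc2, as it was in all 17 GFxCR morulae. Those 2 genes chose the controls, so their values are a description only. Marchf2 had a median of 25.6 TPM (transcripts per 1000000 transcripts) in GFxCR morulae, 30.5 TPM in the 21 controls and 0.875 TPM in the other 22 CRxCR morulae, whereas Mtarc2 had medians of 0, 2.47 and 27 TPM in the same order. The control nearest the limit was embryo 8 with 16.9 TPM of Marchf2 and 7 TPM of Mtarc2, and the nearest embryo left out was CRxCR embryo 35 with 6.73 and 12.7 TPM. The labels give neither the fertilisation experiment, the male nor the sex of an embryo, so p-values treat embryos as independent although some may share a sire. GF and CR males came from different colonies of C57BL/6 mice, so germ-free rearing and colony cannot be told apart.

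The morula is the stage at which the blastomeres of the mouse embryo press together, form junctions and begin to divide between the future inner cell mass and the trophectoderm, which builds the placenta. By then most maternal RNA has been replaced by transcripts of the embryo's own genome, from the egg-derived and the sperm-derived chromosomes. Imprinted genes are an exception, since they are read from the copy of 1 parent alone, and in female mouse embryos of this stage the sperm-derived X chromosome is the one that expresses Xist and is silenced.

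Both groups carried most listed markers of the stage. Pou5f1, a pluripotency factor, averaged 1326 ± 398 TPM in GFxCR morulae and 1547 ± 287 TPM in CRxCR morulae (SD, n = 17 and 21), and Nanog, Klf5, Tead4, Cdx2, Cdh1, Krt8 and Krt18 were at 1 TPM or more in all 38 embryos. The other listed markers were Dppa1, at 1 TPM or more in 12 of 17 GFxCR and 18 of 21 CRxCR morulae, and Sox2, in 5 and 8. Among oocyte markers, Zp3 reached 1 TPM in 14 GFxCR and 20 CRxCR morulae, Gdf9 in 8 and 8, Bmp15 in 2 and 2, and Oosp1 in 2 and 0. The summed level of 5 cumulus cell markers was at most 0.180 TPM in GFxCR and 0.720 TPM in CRxCR morulae, with Ptx3, Has2 and Cyp19a1 at 0 throughout, and Ptprc and Hbb-bs, markers of blood, were listed at 0 in every embryo. A longer list of 9 blood and immune genes had a median sum of 10.3 TPM in GFxCR and 17.7 TPM in CRxCR morulae, and of these Cd68, a lysosomal protein of macrophages, averaged 10.7 TPM in GFxCR and 13 TPM in CRxCR morulae, while Hba-a2, a haemoglobin gene outside the list, reached 161 TPM in CRxCR embryo 17. Of 3 sperm markers, Prm1 and Prm2, the protamines, were at 1 TPM or more in 2 and 2 GFxCR morulae and in 2 and 4 CRxCR morulae, and Tnp1 was at 0. A longer list of 15 sperm and spermatid genes had a median sum of 15.8 TPM (5.22 to 29.2 TPM) in GFxCR and 24.9 TPM (9.22 to 38.6 TPM) in CRxCR morulae. The depth of the libraries is unknown, because TPM keeps none.

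Several embryos stood apart. GFxCR embryos 9 and 10 had little or none of most paternally expressed imprinted transcripts that the other morulae held, as described further on. CRxCR embryos 1 and 3 held Y-linked transcripts (26.1 and 62.1 TPM) together with Xist (9.27 and 10.6 TPM) and Rhox5 (217 and 183 TPM). CRxCR embryo 17 had a median correlation of 0.780 with the other 37 embryos across the genes tested, against 0.841 for the next lowest embryo. The fits across all genes were therefore also run without these embryos. Most single-value tests and the list counts were repeated without GFxCR embryos 9 and 10 only. The Y-linked share was also compared without CRxCR embryos 1 and 3.

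Fewer genes were detected in GFxCR morulae. The number of genes at 1 TPM or more per embryo ran from 7481 through a median of 9263 to 10359 in GFxCR morulae, against 9032, 10111 and 10480 in CRxCR morulae. The means were 9219 ± 833 genes in GFxCR and 9934 ± 435 genes in CRxCR morulae (SD), a difference of -715 genes (two-sided permutation test, p = 0.00158, n = 17 and 21). Counting genes at 5 TPM or more gave 6625 ± 497 in GFxCR and 7084 ± 314 in CRxCR morulae (permutation p = 0.00118). Without GFxCR embryos 9 and 10 the difference was -663 genes (permutation p = 0.00456). The groups overlapped widely, and 11 GFxCR and 19 CRxCR morulae lay in the range of 9032 to 10359 genes that both reached. The number of genes a single-embryo library holds can follow the amount of RNA recovered as well as the genes in use, and these could not be told apart in TPM. The share of the TPM total taken by ribosomal protein genes was 18.3 ± 2.10% in GFxCR and 19.7 ± 1.90% in CRxCR morulae (permutation p = 0.0378, 0.0756 after Benjamini-Hochberg adjustment over 2 shares). That of the 50 most abundant genes was 22.4 ± 1.41% in GFxCR and 21.8 ± 0.905% in CRxCR morulae (permutation p = 0.106, adjusted p = 0.106).

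**Figure D1:**
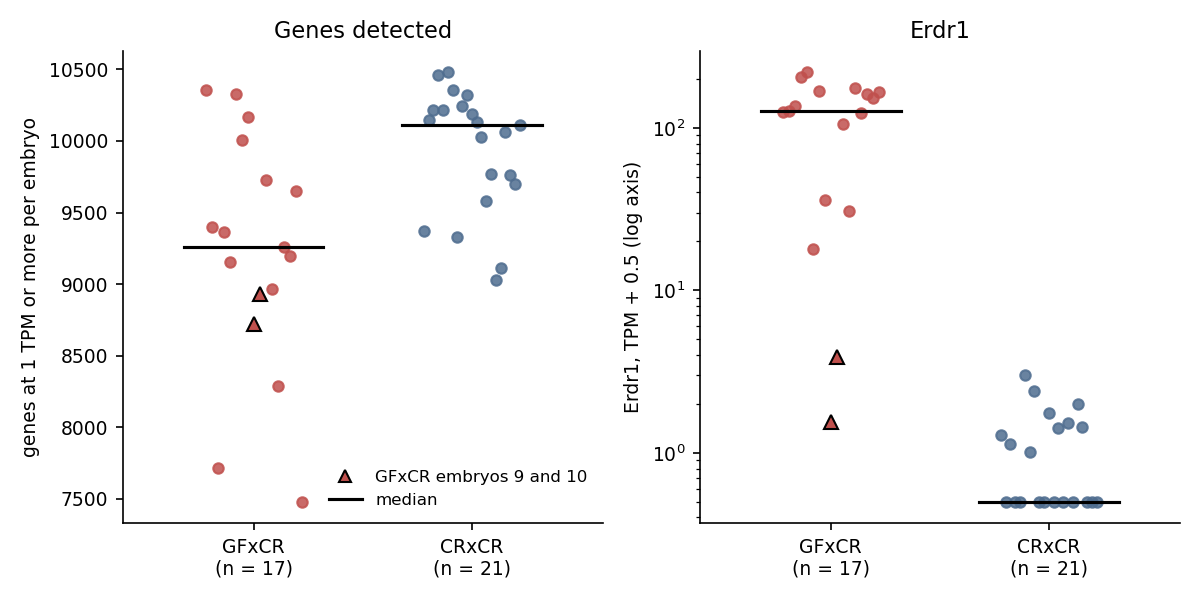
Genes at 1 TPM or more per morula (left) and Erdr1 in TPM plus 0.5 on a log axis (right), 1 point per embryo with the median as a line, for 17 GFxCR and 21 CRxCR morulae. GFxCR embryos 9 and 10, drawn as triangles, have 8722 and 8928 genes, within the GFxCR range, but only 1.05 and 3.38 TPM of Erdr1, whereas the other 15 GFxCR embryos lie at 17.4 TPM or above and every CRxCR embryo at 2.52 TPM or below.

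Erdr1 was the gene that set GFxCR morulae apart. Erdr1, erythroid differentiation regulator 1, is listed in RefSeq as a transcribed pseudogene on chromosome X (GRCm38.p6, 170010526 to 170018797), at the end of the chromosome, in or next to the region shared with the Y, where closely related copies can share reads. Its level ran from 1.05 through a median of 126 to 219 TPM in GFxCR morulae, against 0, 0 and 2.52 TPM in CRxCR morulae, of which 11 of 21 were listed at 0. In the GFxCR group 16 of 17 embryos were above every CRxCR embryo, and the exception was embryo 9. Embryo 10 followed at 3.38 TPM, embryos 6, 12 and 8 had 17.4, 30.3 and 35.5 TPM, and the other 12 had 105 TPM or more. The difference of the means on the log2(TPM + 0.5) scale was 6.31 (two-sided permutation test, p = 2e-05, the smallest that 100000 resamples can give), and without embryos 9 and 10 it was 6.95 (permutation p = 2e-05).

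Erdr1 was also compared apart in embryos with and without Y-linked transcripts, because of its place on the X. Among embryos with Y-linked transcripts at 5 TPM or more, Erdr1 had a median of 151 TPM (30.3 to 219 TPM, n = 6) in GFxCR morulae, against 0 TPM (0 to 2.52 TPM, n = 15) in CRxCR morulae (exact permutation test, p = 3.69e-05). Among embryos without them it had a median of 123 TPM (1.05 to 204 TPM, n = 11) in GFxCR morulae, against 0.255 TPM (0 to 1.25 TPM, n = 6) in CRxCR morulae (exact permutation test, p = 0.000323). These 11 GFxCR morulae include embryos 9 and 10, and the other 9 ran from 17.4 to 204 TPM (median 125 TPM). Adjusted over both tests the values were 7.38e-05 and 0.000323. The 2 differences on the log2 scale, 7.09 and 5.94, were not shown to differ from each other (limma interaction term 1.22, unadjusted p = 0.257, adjusted p = 0.998 across all genes).

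Across the transcriptome, the comparison depended on whether the number of genes per embryo was taken into account. With that number as a term in the fit (limma on log2(TPM + 0.5), 9881 genes at 1 TPM or more in at least 17 embryos), Erdr1 alone passed an adjusted p of 0.05, that is 1 gene of 9881 (0.0101%). Its log2 fold change was 6.22 ± 0.56 (SE, adjusted p = 7.9e-10), and 1027 genes (10.4%) were under an unadjusted p of 0.05. A looser call, which asked for a raw p below 0.05 and a change of over 1 log2 unit, took 151 genes (1.53%), 101 higher and 50 lower in GFxCR morulae. With group alone, 1270 genes (12.9%) passed the adjusted p, of which 1026 (10.4%) were lower and 244 (2.47%) higher in GFxCR morulae, the looser call took 632 genes (6.4%), 608 lower and 24 higher, and 3101 genes (31.4%) were under an unadjusted p of 0.05. The median log2 fold change of all genes was -0.24 with group alone and -0.01 with the term. Of the 1270 genes, 1268 kept their direction with the term and 533 had an unadjusted p under 0.05 with it. The median log2 fold change of the 1026 lower genes was -0.95 with group alone and -0.45 with the term, with median standard errors of 0.28 and 0.27.

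**Figure D2:**
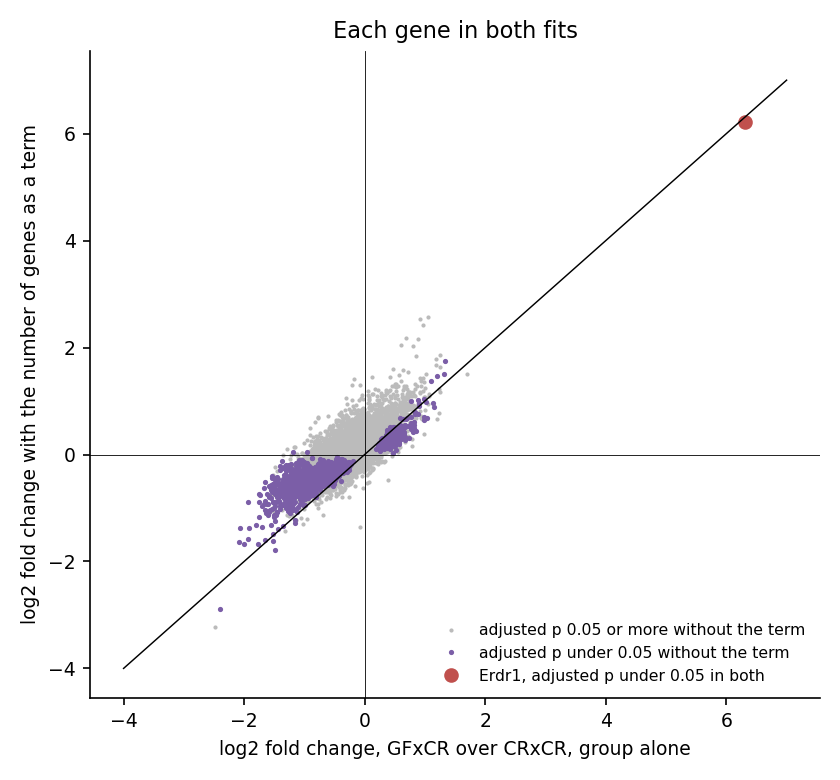
Log2 fold change of each of 9881 genes, GFxCR over CRxCR morulae, with group alone (horizontal axis) and with the number of genes as a further term (vertical axis). The 1270 genes at an adjusted p under 0.05 with group alone are coloured, most lie left of 0 and above the diagonal line of equal values, and Erdr1 at 6.31 and 6.22 passes in both fits.

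Most transcripts had a slope above 0 on the number of genes detected, 7934 of 9881 genes (80.3%). The median slope over all 9881 genes was 0.34 log2 units per 1000 genes. Of the 1026 genes lower with group alone, 1016 had a slope above 0. These counts take the sign of the slope alone. The number of genes is itself counted from the same values, which favours slopes above 0, so the counts are a description. When only the 11 GFxCR and 19 CRxCR morulae in the shared range were compared with no term, Erdr1 was again the only gene at an adjusted p under 0.05, and 1179 genes were under an unadjusted p of 0.05. The genes lower with group alone had a median level of 11.2 TPM, those higher one of 217 TPM and all genes tested one of 14.3 TPM.

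The genes with the smallest p in each direction, taken after Erdr1 because no other gene passed, all had an adjusted p of 0.245 in the fit with the number of genes. Those higher were Syngr1, a synaptic vesicle protein, Zfpl1, a Golgi zinc finger protein, Psmc1, an ATPase of the proteasome, Exosc4, a subunit of the RNA exosome, Gltscr2, a nucleolar protein, Spic, an Ets-family transcription factor, Ccdc124, Foxn3, a forkhead factor, and Tmem160. Syngr1 ran from 337 through a median of 615 to 1057 TPM in GFxCR morulae, against 227, 434 and 559 TPM in CRxCR morulae. The groups overlapped, and its log2 fold change was 0.53 ± 0.13 (SE). Spic ran from 46.9 through 375 to 818 TPM in GFxCR morulae, against 10.9, 168 and 542 TPM in CRxCR morulae, with a log2 fold change of 1.5 ± 0.40. Its range in GFxCR morulae covered most of that in CRxCR morulae. With group alone Syngr1 (adjusted p = 0.00309) and Spic (adjusted p = 0.0164) rose, beside 2.47% of all genes higher. So did Psmc1, Exosc4, Zfpl1, Ccdc124 and Foxn3, while Gltscr2 (adjusted p = 0.0503) and Tmem160 (adjusted p = 0.906) did not pass. All were picked for a small p in the same embryos, so these calls are a description.

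Those lower were Zfp87 and Zfp874b, zinc finger proteins, Echdc3, Med21, a subunit of the Mediator complex, Dhx9, an RNA helicase, Pigf, of glycosylphosphatidylinositol anchor synthesis, Septin8, Trak2, an adaptor of mitochondrial transport, Sp3, a transcription factor that binds GC boxes, and Snx24. Zfp87 ran from 0 through a median of 0.890 to 5.01 TPM in GFxCR morulae, against 1.27, 6.60 and 14.2 TPM in CRxCR morulae. All 17 GFxCR embryos lay below the CRxCR median, and its log2 fold change was -1.37 ± 0.33 (SE) with the number of genes and -2.06 ± 0.35 with group alone (adjusted p = 0.00258). Sp3 ran from 0.210 through 1.88 to 10.4 TPM in GFxCR morulae, against 2.84, 9.44 and 16.9 TPM in CRxCR morulae. Dhx9 ran from 1.42 through 5.38 to 15.8 TPM in GFxCR morulae, against 5.18, 17.4 and 26 TPM in CRxCR morulae. For both the groups overlapped, and the lowest values, 0.210 TPM of Sp3 in embryo 9 and 1.42 TPM of Dhx9 in embryo 13, belonged to GFxCR embryos with 8722 and 8292 genes. With group alone 9 of these 10 genes fell, beside 10.4% of all genes lower, and Pigf did not pass (log2 fold change -0.28, adjusted p = 0.164). The 10 genes were picked for a small p in the same embryos, so these calls are a description.

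**Figure D3:**
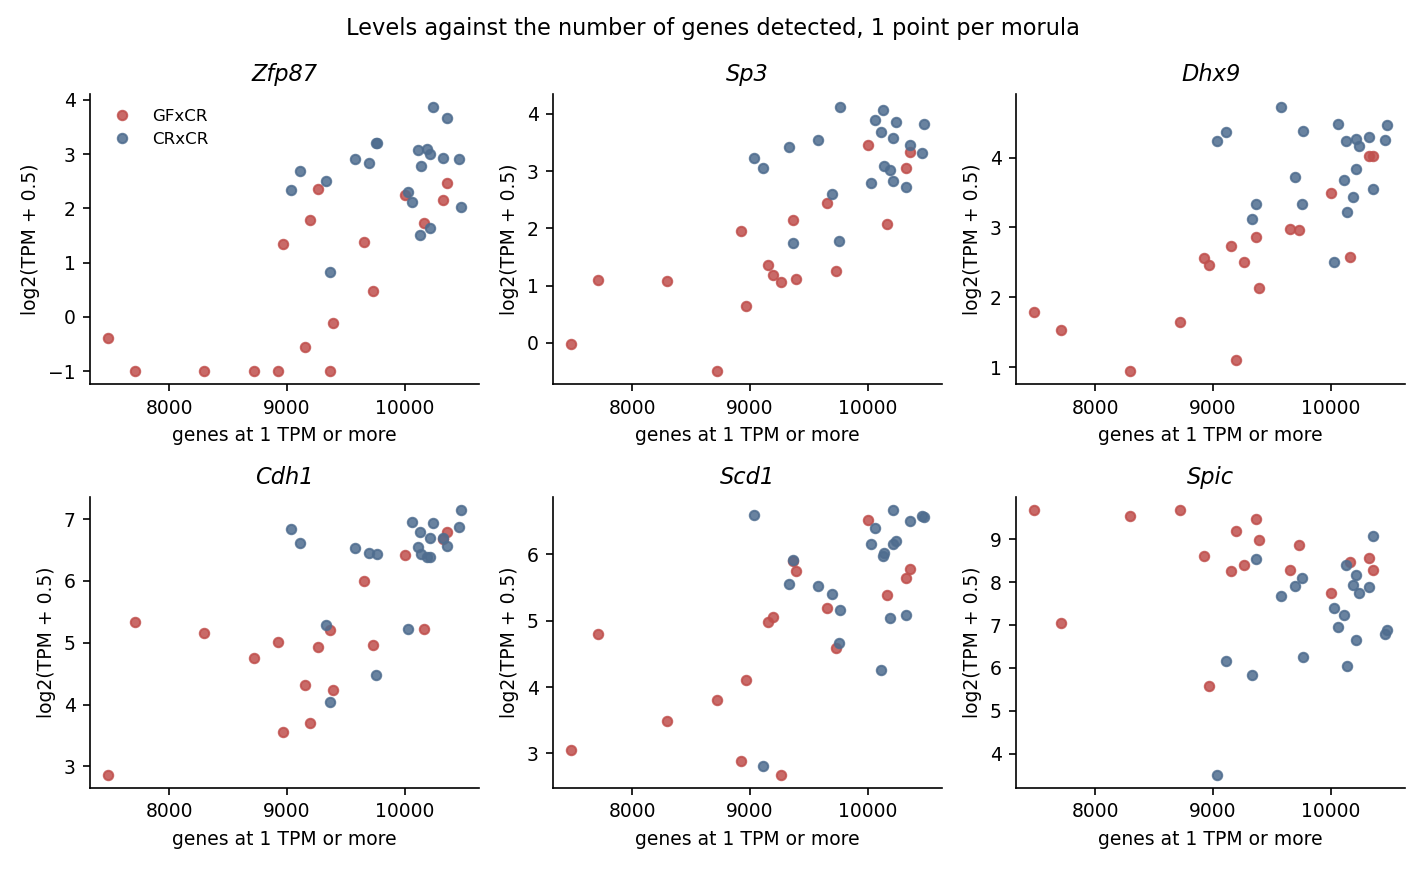
Level of Zfp87, Sp3, Dhx9, Cdh1, Scd1 and Spic as log2(TPM + 0.5) against the number of genes at 1 TPM or more, 1 point per morula, for 17 GFxCR and 21 CRxCR embryos. Zfp87, Sp3, Dhx9, Cdh1 and Scd1 go up with the number of genes, and the GFxCR embryos below 9032 genes, where no CRxCR embryo lies, carry several of their lowest values.

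Genes of compaction and of the junctions between blastomeres were among the lists with most calls in the fit of group alone, where 8 of 33 tested members were lower in GFxCR morulae and none higher, beside 10.4% of all genes lower. Among them were Ctnnd1, Cdh1, Dsc2, Jup, Prkci, Tjp1 and Nf2. Cdh1, the adhesion protein E-cadherin that drives compaction, ran from 6.79 through a median of 31.7 to 110 TPM in GFxCR morulae, against 16, 93.4 and 141 TPM in CRxCR morulae. More GFxCR than CRxCR embryos were low, but the groups overlapped. Its log2 fold change was -1.29 ± 0.29 with group alone (adjusted p = 0.00723) and -0.71 ± 0.29 with the number of genes (adjusted p = 0.411). Ctnnd1, the catenin that binds E-cadherin at the membrane, had -1.14 ± 0.24 and -0.68 ± 0.23 in the same 2 fits. Cldn4, a claudin of tight junctions, averaged 930 ± 264 TPM in GFxCR and 772 ± 225 TPM in CRxCR morulae and passed in neither fit. Dsc2, a desmosomal cadherin of low level, reached 1 TPM in 2 of 17 GFxCR and in 15 of 21 CRxCR morulae. The list's median log2 fold change was -0.54 with group alone and -0.17 with the number of genes. Without embryos 9 and 10 the count of lower members with group alone was 6. Calls fell for all genes too, with 699 of the 9881 genes lower without these embryos, against 1026 with them.

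In the lists of the first cell lineages the counts were small. Of 10 primitive endoderm genes tested, Col4a1, Col4a2, Lamb1 and Cubn, of the basement membrane and of endocytosis, were lower with group alone, beside 10.4% of all genes lower. Without embryos 9 and 10 none was below an adjusted p of 0.05, beside 699 of the 9881 genes lower. The list's median log2 fold change was still -0.69, against -0.83 with all embryos, and that of Col4a1 was -0.94 (adjusted p = 0.0562). Col4a1 averaged 6.41 ± 5.17 TPM in GFxCR morulae and 12.3 ± 5.66 TPM in CRxCR morulae. Of 22 trophectoderm genes 1 (4.55%) was lower, Fgfr2, the receptor through which FGF4 of the inner cells acts, at 6.79 ± 3.44 TPM in GFxCR and 13.7 ± 5.21 TPM in CRxCR morulae. Of 23 pluripotency and inner cell mass genes 1 (4.35%) was lower, Lin28a, an RNA-binding protein, and 1 higher, Dppa4, beside 2.47% of all genes higher. Dppa4 was at 653 ± 167 TPM in GFxCR and 497 ± 98.5 TPM in CRxCR morulae. None of these lists had a member at an adjusted p under 0.05 with the number of genes, where their medians were -0.19, -0.01 and 0.27.

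Metabolic lists differed in how far they moved with the number of genes. Of 20 genes of fatty acid synthesis and lipid storage 7 were lower with group alone, Me1, Fads1, Acly, Srebf1, Agpat2, Elovl7 and Scd1, beside 10.4% of all genes lower. Without embryos 9 and 10, 3 were lower, beside 699 of the 9881 genes. The list's median of -0.54 became -0.16 with the number of genes. Me1, the malic enzyme that supplies NADPH, averaged 25 ± 17.3 TPM in GFxCR and 52.9 ± 20.9 TPM in CRxCR morulae. Scd1, the desaturase that makes monounsaturated fatty acids, ran from 5.91 through a median of 31.2 to 90.9 TPM in GFxCR morulae, against 6.53, 62.4 and 101 TPM in CRxCR morulae. The ranges nearly coincided, and the group means on the log2 scale differed by -0.99 (two-sided permutation test, p = 0.00678), but by -0.37 ± 0.32 (SE) with the number of genes (adjusted p = 0.733). The level of Scd1 went up by 0.88 log2 units per 1000 genes. Without embryos 9 and 10, Scd1 with group alone had a log2 fold change of -0.82 (adjusted p = 0.0928, two-sided permutation test p = 0.0263).

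The nuclear subunits of oxidative phosphorylation, of which all 76 listed were tested, had medians of -0.01 in both fits and a slope of -0.03 per 1000 genes. With group alone 8 were higher and 7 (9.21%) lower, beside 2.47% of all genes higher and 10.4% lower. Without embryos 9 and 10 the counts were 7 and 3, beside 211 and 699 of the 9881 genes. Uqcr11, a small subunit of complex III, averaged 1055 ± 241 TPM in GFxCR and 714 ± 197 TPM in CRxCR morulae (log2 fold change 0.59 ± 0.13, adjusted p = 0.00677), and Ndufa12, of complex I, 1166 ± 511 TPM in GFxCR and 725 ± 159 TPM in CRxCR morulae. Atp5g2, which encodes subunit c of the ATP synthase, averaged 238 ± 95.3 TPM in GFxCR and 379 ± 120 TPM in CRxCR morulae. Atp5g1, another gene of subunit c, went the other way. It averaged 1432 ± 325 TPM in GFxCR and 1116 ± 186 TPM in CRxCR morulae. In the glycolysis list 2 of 17 genes (11.8%) were lower, Gpi1 and Slc16a1, a share near the 10.4% of all genes.

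Ribosomal protein genes, the largest list, had most calls by number. With group alone 21 of 82 (25.6%) were lower and 2 higher, beside 10.4% of all genes lower and 2.47% higher. By share, among the lists with at least 10 genes tested, those of primitive endoderm (40%) and fatty acid synthesis (35%) had more lower members. Without embryos 9 and 10, 20 ribosomal protein genes were lower and 2 higher, beside 699 and 211 of the 9881 genes. The sizes were small, with a median of -0.17, while the median of all genes was -0.24. Rpl23 averaged 954 ± 198 TPM in GFxCR and 1286 ± 188 TPM in CRxCR morulae (log2 fold change -0.44 ± 0.09, adjusted p = 0.00412), whereas Rpl35 averaged 3596 ± 716 TPM in GFxCR and 2785 ± 331 TPM in CRxCR morulae (log2 fold change 0.35 ± 0.08, adjusted p = 0.00677). Pseudogene copies of these genes can share reads with them. With the number of genes none passed the adjusted p, 21 of 82 were lower at an unadjusted p under 0.05 beside 4.8% of all genes, and Rpl23 had -0.32 ± 0.09 (adjusted p = 0.245).

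Replication-dependent histones had the steepest tie to the number of genes among the lists of over 10 genes, at a median of 1.00 log2 units per 1000 genes. Of 29 tested 5 (17.2%) were lower with group alone and none higher, beside 10.4% of all genes lower. Hist1h4d averaged 87.9 ± 51.3 TPM in GFxCR and 177 ± 62.0 TPM in CRxCR morulae. Hist1h4m, another histone H4 gene, was at 0 in 16 of 17 GFxCR morulae and at 18.2 TPM in embryo 16, and at 0 in all 21 CRxCR morulae. Histone transcripts lack long poly(A) tails and near-identical copies share reads, so these values are uncertain.

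Maternal and stress lists differed in their calls. Dppa3, a maternal factor that protects methylation of the egg-derived genome, averaged 10097 ± 3603 TPM in GFxCR and 6942 ± 2038 TPM in CRxCR morulae. It was the only one of 14 maternal transcripts to rise with group alone (log2 fold change 0.51 ± 0.14, adjusted p = 0.0164), beside 2.47% of all genes higher. With the number of genes it had 0.24 ± 0.13 (adjusted p = 0.540). Khdc3, of the subcortical maternal complex, averaged 2680 ± 714 TPM in GFxCR and 2206 ± 658 TPM in CRxCR morulae and passed in neither fit. Of 12 immediate-early transcription factors Myc rose with group alone (33.3 ± 27.2 TPM in GFxCR and 15.3 ± 12.9 TPM in CRxCR morulae, adjusted p = 0.0472), beside 2.47% of all genes higher. Its log2 fold change was 1.33, against 1.08 without embryos 9 and 10 (adjusted p = 0.116). Of 19 p53 targets 4 (21.1%) were lower with group alone, Trp53inp1, Zmat3, Ccng1 and Sesn2, beside 10.4% of all genes lower. Of 21 genes of oxidative stress 3 (14.3%) were lower, Txn1, Cat and Txnrd1. Without embryos 9 and 10 the counts of these lists were 4 and 1, beside 699 of the 9881 genes lower. No interferon-stimulated gene passed in either fit (7 tested), beside 12.9% of all genes with group alone and 0.0101% with the number of genes. Tslp was at 1 TPM or more in 1 GFxCR and in no CRxCR morula, and Rag2 in none of either.

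**Figure D4:**
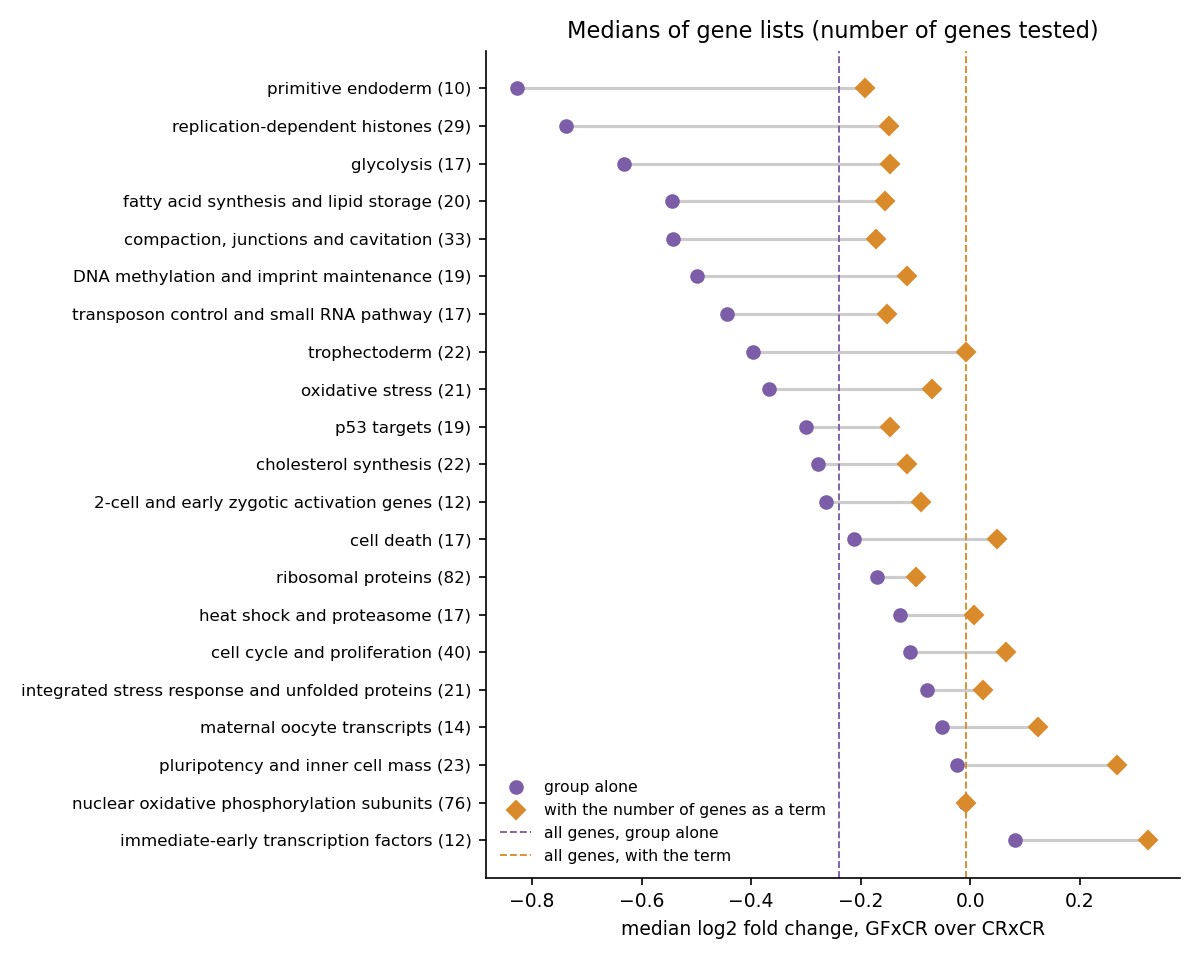
Median log2 fold change of 21 gene lists with at least 10 genes tested (the imprinted genes are plotted apart), GFxCR over CRxCR morulae, with group alone (circles) and with the number of genes as a further term (diamonds), and dashed lines for all genes at -0.24 and -0.01. Lists far left of the first dashed line, led by primitive endoderm at -0.83 and histones at -0.74, come to -0.19 and -0.15 with the term, while oxidative phosphorylation lies at -0.01 in both.

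Sex chromosome transcripts were compared because the labels give no sex, and fewer GFxCR than CRxCR morulae held Y-linked ones, a difference on either side of the threshold by the minimum used. Summed over Ddx3y, Eif2s3y, Kdm5d and Uty, Y-linked transcripts reached 1 TPM in 7 of 17 GFxCR morulae (41.2%) and in 15 of 21 CRxCR morulae (71.4%; Fisher's exact test, two-sided, p = 0.0990). GFxCR embryo 1 had 1.22 TPM, together with Xist at 31 TPM, while all the other embryos lay either at 0.470 TPM or below or between 21.8 and 127 TPM. At a minimum of 5 TPM the counts were 6 of 17 GFxCR and 15 of 21 CRxCR morulae (Fisher's exact test, p = 0.0481). Without GFxCR embryos 9 and 10 they were 6 of 15 GFxCR and 15 of 21 CRxCR morulae (Fisher's exact test, p = 0.0895), and without CRxCR embryos 1 and 3 they were 6 of 17 GFxCR and 13 of 19 CRxCR morulae (Fisher's exact test, p = 0.0933). Of the GFxCR embryos under 5 TPM, 9 held Xist or Rhox5 at 5 TPM or more and 2, embryos 9 and 10, held neither. In CRxCR morulae all 6 such embryos held them.

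X-linked genes stood higher than autosomal ones in the fit with the number of genes, and less so once Y-linked transcripts were a term. In the fit with the number of genes, 315 X-linked genes other than Erdr1 had a median log2 fold change of 0.57, and 85 of them (27%) were higher in GFxCR morulae at an unadjusted p under 0.05 and none lower, beside 5.6% of all genes higher. The 9541 autosomal genes had a median of -0.02. With group alone the X-linked median was 0.06 and the autosomal one -0.25. At an adjusted p under 0.05, 1 X-linked gene was higher and 1 lower, beside 2.47% of all genes higher and 10.4% lower. When the presence of Y-linked transcripts at 5 TPM entered the fit, the X-linked median was 0.35. At an unadjusted p under 0.05, 7 were higher and 2 lower, beside 2.56% of all genes higher. Of the 9541 autosomal genes, 245 were higher and 206 lower in that fit. Utp14a, a nucleolar protein encoded on the X, averaged 73.7 ± 28.4 TPM in GFxCR and 40.2 ± 19.9 TPM in CRxCR morulae (adjusted p = 0.247 with the number of genes). Ddx3y, a Y-linked RNA helicase, ran from 0 through a median of 0 to 23.7 TPM in GFxCR morulae, against 0, 20.8 and 35.1 TPM in CRxCR morulae, with a log2 fold change of -2.88 ± 0.85 (adjusted p = 0.245). Erdr1 kept an adjusted p under 0.05 with the Y-linked term, and it was the only gene that had one.

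GFxCR embryos 9 and 10 were low in most paternally expressed transcripts, which are known as such from mice in general, since no allele was measured here. Summed over the 10 paternally expressed imprinted genes with a median of 5 TPM or more in the other embryos, they had 7.38 and 4.07 TPM, against 355 through a median of 483 to 821 TPM in the other 15 GFxCR morulae and 340, 466 and 686 TPM in the 21 CRxCR morulae. Snurf alone had a median of 308 TPM in the other embryos, so it made up a large part of that sum. The list of imprinted genes was drawn up after embryos 9 and 10 were noticed, so their values are a description. Snurf, the upstream reading frame of the Snrpn locus, had 0.160 and 0.430 TPM in embryos 9 and 10, against 217 to 696 TPM in the other GFxCR and 80.6 to 443 TPM in the CRxCR morulae. Mcts2, a retrogene that lies within an intron of H13, had 1.01 and 0 TPM, against 32.9 to 103 TPM in the other GFxCR and 16.1 to 131 TPM in the CRxCR morulae. Neither embryo came near the range of the others for these genes.

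Genes whose sperm-derived expression depends on histone marks in the egg-derived copy were low as well. Slc38a4, an amino acid transporter, was listed at 0 in both embryos, against 3.84 to 27.6 TPM in the other GFxCR and 7.30 to 43.7 TPM in the CRxCR morulae, and Gab1, a signalling adaptor needed in the placenta, had 0.120 and 0.050 TPM, against 2.52 to 34.3 TPM in the other GFxCR and 10.3 to 45.9 TPM in the CRxCR morulae. Sfmbt2, a Polycomb protein, was at 0 in both, but other GFxCR embryos came down to 0.080 TPM. Of 10 such genes in both classes, 6 were lower in embryos 9 and 10 than in all other 36 embryos, and Sgce was not low, with 5.40 and 2.76 TPM. Xist, which had 0.020 and 0.130 TPM there, is also expressed from the sperm-derived chromosome. Maternally expressed imprinted genes were present: Igf2r, the receptor that clears IGF2, had 15.6 and 20.5 TPM, against a median of 14.4 TPM in the other GFxCR and 14.6 TPM in the CRxCR morulae, and H13 had 69.3 and 46.8 TPM, against medians of 30.7 TPM in the other GFxCR and 30.9 TPM in the CRxCR morulae. Meg3 had 6.08 and 0 TPM there and Phlda2 43.8 and 1.05 TPM, so none of the 4 maternally expressed genes at this level was below all other embryos in both.

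The RefSeq promoter windows of Snurf, Mcts2 and Xist are shown because Snurf and Mcts2 separate embryos 9 and 10 from the rest and are imprinted by methylation of CG dinucleotides, and because Xist was near 0 in these embryos without Y-linked transcripts. Each window spans 250 bases before to 50 after the start of the gene on its own strand (GRCm38.p6), with every CG in capitals. Snurf lies at chr7:60005150-60005449 (minus strand) and holds 7 CG, Mcts2 at chr2:152686898-152687197 (plus strand) with 25, and Xist at chrX:103483184-103483483 (minus strand) with 15. Of 32851 such windows, 52.1%, 18.4% and 34.6% held at least as many, and the median window held 7. No methylation was measured in these embryos.
Snurf: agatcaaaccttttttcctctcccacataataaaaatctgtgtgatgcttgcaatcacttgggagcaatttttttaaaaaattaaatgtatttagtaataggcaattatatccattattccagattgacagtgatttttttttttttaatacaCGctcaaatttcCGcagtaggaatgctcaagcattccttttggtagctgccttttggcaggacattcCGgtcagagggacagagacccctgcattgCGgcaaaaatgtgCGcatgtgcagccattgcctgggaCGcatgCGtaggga
Mcts2: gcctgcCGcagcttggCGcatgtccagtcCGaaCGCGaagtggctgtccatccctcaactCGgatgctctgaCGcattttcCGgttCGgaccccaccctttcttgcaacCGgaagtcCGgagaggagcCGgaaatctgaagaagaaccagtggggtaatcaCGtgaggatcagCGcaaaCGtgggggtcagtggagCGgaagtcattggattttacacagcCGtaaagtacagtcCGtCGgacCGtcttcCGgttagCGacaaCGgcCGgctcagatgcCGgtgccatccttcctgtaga
Xist: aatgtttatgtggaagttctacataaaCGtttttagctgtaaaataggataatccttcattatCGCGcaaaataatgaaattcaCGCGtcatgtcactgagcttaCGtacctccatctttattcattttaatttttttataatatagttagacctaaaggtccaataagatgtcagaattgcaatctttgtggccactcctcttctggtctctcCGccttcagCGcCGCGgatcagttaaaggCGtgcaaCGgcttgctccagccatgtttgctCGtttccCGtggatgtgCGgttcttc

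**Figure D5:**
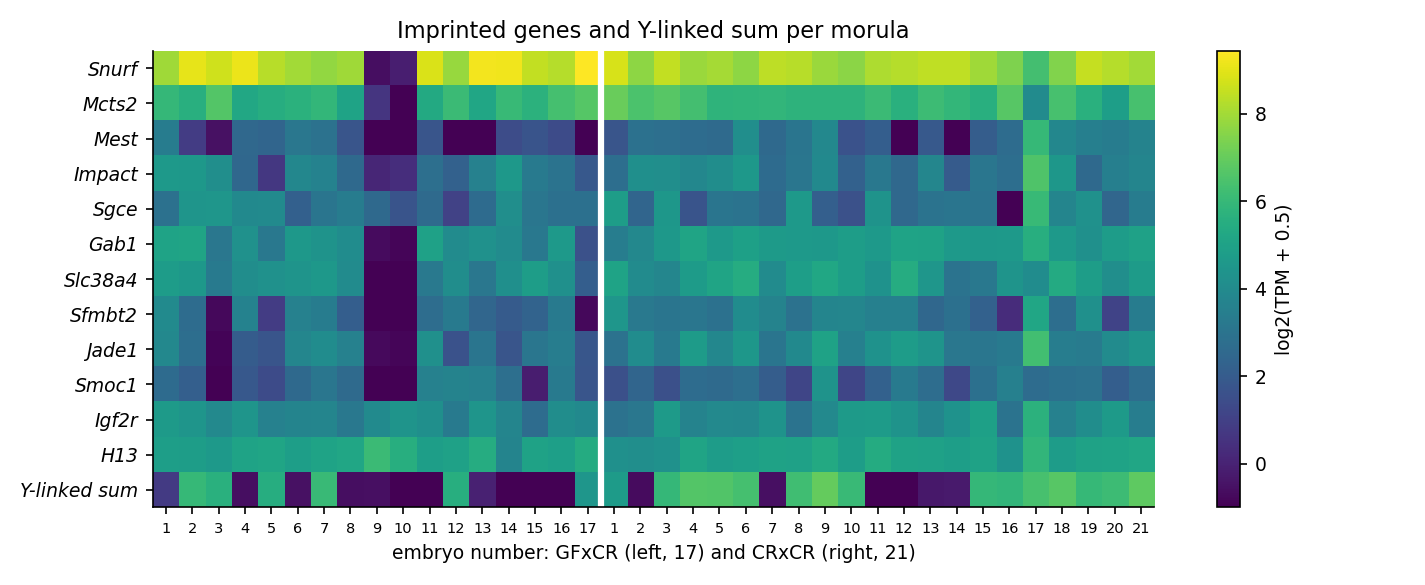
Level of 10 paternally expressed imprinted genes (Snurf to Smoc1), of the maternally expressed Igf2r and H13 and of the Y-linked sum as log2(TPM + 0.5) by colour, 1 column per morula, GFxCR embryos 1 to 17 left of the white line and CRxCR embryos 1 to 21 right of it. GFxCR columns 9 and 10 are dark from Snurf to Smoc1 except for Sgce, while Igf2r at 15.6 and 20.5 TPM lies within the range of the other embryos and H13 at 69.3 and 46.8 TPM lies above all other GFxCR embryos.

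Other genes set the same embryos apart. Of 7258 genes with a mean log2(TPM + 0.5) over 2 in the other 36 embryos, 147 were lower in both embryos 9 and 10 than in any other. After Snurf, those with the widest gap and a named product were Fkbp6, a co-chaperone, at 0 and 0.230 TPM, against a median of 82.0 TPM in the other embryos, Hist1h2bc at 0 in both, against 43.1 TPM, and Epas1, a hypoxia-inducible factor, at 0 and 0.1 TPM, against 58.2 TPM. Counted over all genes, 176 were higher in both than in any other embryo. Among them were Zp3, a protein of the egg coat, at 70.3 and 77.9 TPM, against a median of 11.5 TPM, Btg4, which clears maternal RNA, at 9.70 and 6.61 TPM, against 0 TPM, and Trim43c, a gene of early cleavage, at 442 and 468 TPM, against 15.3 TPM. These genes were picked for standing apart and carry no test.

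The groups were also compared without embryos 9 and 10. With the number of genes Erdr1 was again the only gene at an adjusted p under 0.05, of 10058 tested. With group alone 916 genes passed, 705 lower and 211 higher. Of the paternally expressed histone-marked genes, Gab1 and Jade1 fell with group alone when all 17 embryos were fitted (log2 fold change -1.19, adjusted p = 0.0395, and -1.71, adjusted p = 0.00907), and without embryos 9 and 10 Jade1 passed (adjusted p = 0.0224) and Gab1 did not (adjusted p = 0.0720).

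At the 4-cell stage, a separate table held 15 GFxCR embryos and 19 CRxCR embryos with Marchf2 above Mtarc2, and its values are given beside those of the morulae without a test. Erdr1 ran from 1.37 through a median of 42.3 to 88.0 TPM in GFxCR embryos, against 0, 0 and 2.39 TPM in CRxCR embryos. The groups were apart but for GFxCR embryo 7, since the next lowest had 24.4 TPM. That embryo also had 1.59 TPM of Snurf, 0 TPM of Mcts2 and 0 TPM of Y-linked transcripts at 9911 genes, so the GFxCR embryos with the least Erdr1, this one and morulae 9 and 10, were also those with the least Snurf at their stage. The number of genes at 1 TPM averaged 9105 ± 991 in GFxCR and 8996 ± 754 in CRxCR 4-cell embryos. Of the genes plotted against the number of genes in morulae, 4 had close medians at this stage: Zfp87 had 1.21 and 1.70 TPM, Sp3 6.01 and 6.25 TPM, Dhx9 9.35 and 9.14 TPM and Cdh1 25.4 and 24 TPM in GFxCR and CRxCR embryos. Scd1, whose median was lower in GFxCR than in CRxCR morulae, had a median of 22.8 TPM in GFxCR and 13.9 TPM in CRxCR 4-cell embryos. Spic, high in GFxCR morulae, had a median of 882 TPM in GFxCR and 1384 TPM in CRxCR 4-cell embryos.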

How the data were processed

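Single morulae were sequenced as polyadenylated RNA (Nextera XT libraries). The submitters' processing notes name RSEM and the build mm10, and the deposited values, although named CPM, behave as TPM: each column adds up to 1000000 and its small values are not multiples of 1 unit, so no depth or read count can be recovered. The mitochondrial genes are not in the table used here. From these values, limma 3.58.1 (R 4.3.3) was run with its trend option on log2(TPM + 0.5) for the genes at 1 TPM or more in at least 17 embryos, without Marchf2 and Mtarc2, with the group and the number of genes at 1 TPM or more as terms and Benjamini-Hochberg adjustment over all genes. Fold changes on this scale understate the changes of low genes. A fit of group alone, other pseudocounts, filters, scalings and terms, and fits without single embryos were alternatives. Single values were compared with two-sided permutation tests of 100000 resamples or exact ones, and Y-linked shares with Fisher's exact test (SciPy 1.17.1). The fit with the number of genes was tested on simulated data, with independent noise and the observed numbers of genes. The other fits were not. Chromosomes and promoter windows came from RefSeq (9860 of 9881 genes matched; Erdr1 had no window). All columns used were mapped to samples by name. No 2 embryos were duplicates (highest correlation 0.958). The named genes were the 10 of largest change per direction that passed, filled by smallest p, up to 4 called or 2 most abundant members per list, and Erdr1, Hist1h4m, Tslp, Scd1 and Rag2, with further genes named after their values were seen (the calls of group alone, the imprinted genes and those of embryos 9 and 10). The members and the 32 gene lists were chosen with earlier results of these data known. Results for some genes are not reported here.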

Additional observations from a re-analysis of the deposited data

Results flagged for a closer look

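In data outside the comparison, Erdr1 was above every control in 17 of 28 RAGxWT morulae, which came from Rag2-/- sperm and eggs of WT mice and belong to the set with Mtarc2 above Marchf2. It ran from 0 through a median of 41.1 to 287 TPM there, against 0, 0.925 and 4.93 TPM in the 22 CRxCR morulae of that set. GFxCR morulae had 1.05, 126 and 219 TPM.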

How the results depend on the processing

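Erdr1 kept an adjusted p under 0.05 in all 20 alternative fits that tested it, with log2 fold changes of 5.56 to 7.57. With a filter at 5 TPM in 17 embryos it was not tested, and 0 genes passed (limma, 833 at an unadjusted p under 0.05). The count of genes at an adjusted p under 0.05 was 1 with the number of genes, 3 with array quality weights (Erdr1, Dhcr7 and Gm17066), 1270 with group alone, 916 with group alone without GFxCR embryos 9 and 10, 1609 without CRxCR embryos 1 and 3 and 1400 without CRxCR embryo 17. With a log2 fold change beyond 1 as well, these 4 fits of group alone gave 452, 322, 601 and 503 genes, and the filter at 5 TPM gave 0. The looser call, 151 genes with the number of genes, gave 632, 527, 776 and 681 in the same 4 fits, 272 and 81 with pseudocounts of 0.1 and 1, 92 with the filter at 5 TPM, 94 with array quality weights, 67 and 81 with Y-linked transcripts at 1 and 5 TPM as a further term, 99 with the term at 5 TPM without GFxCR embryos 9 and 10, and 95 without CRxCR embryo 17. The cause was not tested. The ribosomal protein share differed by -1.64 percentage points without GFxCR embryos 9 and 10 (adjusted permutation p = 0.0350), and the Y-linked share by -36.1 percentage points at 5 TPM (Fisher's exact test, p = 0.0481). Of 22 genes followed over the fits, Tmem160 turned to -0.033 with group alone without GFxCR embryos 9 and 10 and to -0.0497 with group alone without CRxCR embryo 17.

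The replicate numbers do not pair the embryos: over 17 same-numbered pairs the correlation of deviations ran from -0.28 to 0.20, 2 pairs were over 0.1, and 1 embryo correlated best with its own number. A fit with the replicate block and the number of genes gave 1 gene at an adjusted p under 0.05 and 128 by the looser call. No embryo was under 50% of the median number of genes, so the fit without such embryos was not run. The values are single-embryo TPM of unknown depth, embryos of 1 sire or fertilisation cannot be told apart, sex was read from transcripts alone, and counting error of low genes cannot be separated from differences between embryos.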

Other observations

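Of the 28 RAGxWT morulae, 3 were also low in the sum over the 10 paternally expressed imprinted genes: embryos 21 and 23 had a sum of 4.63 and 6.45 TPM and embryo 19 had 45.1 TPM, against a median of 484 TPM in that group. Embryos 21 and 23 had no Y-linked transcripts, 0.450 and 0.0300 TPM of Xist, and 0 and 1.22 TPM of Erdr1, whereas embryo 19 had 37.4 TPM of Erdr1. No CRxCR morula of either set had a sum under 340 TPM. CRxCR embryo 17, which was least like the others, held 37 genes at 10 TPM or more and over 5 times the level of every other embryo, led by Abhd6 at 1695 TPM.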
